A study of Homo sapiens with 6 samples.

Results

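The genes described here are 10 genes that ERK signaling turns on and that in turn limit or carry that signal: the MAP kinase phosphatases *DUSP4*, *DUSP5*, *DUSP6* and *DUSP7*, the Sprouty and Spred genes *SPRY1*, *SPRY2*, *SPRY4* and *SPRED1*, and the ETS transcription factors *ETV4* and *ETV5*. They were selected by symbol under a rule that uses no measured value, although the list was drawn up with earlier results of these data known. Each was found once among the 21475 genes of the 6 libraries. RNA came from 3 WT and 3 *FGFR2* KO lines of HaCaT, an immortalized human keratinocyte line, with 1 library per line. The KO lines were made with CRISPR/Cas9 and a single guide RNA against *FGFR2*, followed by single-cell sorting, so that each KO line is 1 clone. The WT lines kept *FGFR2*; a figure legend of the study calls the sequenced WT lines clonally expanded, while its text describes the first of its numbered WT lines as the starting population and the others as clones. All lines grew in DMEM with fetal bovine serum, and the labels name no added growth factor. Levels are given as FPKM, fragments scaled by gene length and library depth, which allows genes of different length to be compared within a library, and the values of a group are listed in the order of replicates 1, 2 and 3.

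ERK is activated when a ligand binds a receptor tyrosine kinase such as an FGF or EGF receptor and the signal passes through RAS, RAF and MEK. DUSP phosphatases remove the activating phosphates from ERK, with DUSP6 and DUSP7 acting in the cytoplasm and DUSP4 and DUSP5 in the nucleus. Sprouty and Spred proteins act further up, between the receptor and RAF, and are themselves made in response to the signal. ETV4 and ETV5 belong to the PEA3 group of ETS factors, whose genes are classical readouts of FGF signaling in developing tissues. The repressor CIC (Capicua) holds several of these genes down until ERK inactivates it. In keratinocytes the same pathway also runs from the EGF receptor, so these transcripts do not report on FGFR2 alone.

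The libraries carried the markers of their labelled cell type. All 13 keratinocyte markers passed the filter on low values, and *KRT5*, a keratin of basal keratinocytes, lay between 6086 and 14768 FPKM. Melanocyte markers summed to at most 2.44 FPKM in a library, leukocyte markers to at most 1.90 FPKM, and fibroblast markers to between 6.91 and 33.2 FPKM, the highest in WT replicate 2. The targeted gene, *FGFR2*, stood at 21.6, 39.7 and 15.0 FPKM in the WT lines and at 3.04, 2.26 and 4.31 FPKM in the KO lines, so the groups did not overlap. Depth was estimated from steps in the low values as 67600000 to 87900000 fragments. Libraries differed in the share of FPKM that came from the mitochondrial chromosome, 21.5% to 27.6% in WT and 11.9% to 23.7% in KO, with KO replicate 3 the lowest. WT replicate 2 and KO replicate 3 were the pair of libraries least alike, with a Spearman correlation across genes of 0.923 against up to 0.988 for other pairs.

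*DUSP6*, *ETV4* and *SPRY4* were higher in each of the 3 KO lines than in each of the 3 WT lines, with means 2.36, 2.31 and 2.84 times those of WT. The other 7 members overlapped between the groups. Of the 10 members, 8 had a mean of at least 0.5 FPKM and were tested, while *SPRY1* and *SPRY4* lay under that filter. The limma fit covered 12241 genes with Benjamini-Hochberg adjustment. In it 0 members reached an adjusted p of 0.05 together with a log2 difference of 0.5 in either direction. Of all tested genes, 0 did (0%). The targeted gene *FGFR2* was thus not called either, at a log2 fold change of -2.73 and an adjusted p of 0.261 (limma). The absence of calls is therefore not evidence that the members were unchanged. Before adjustment, at p up to 0.05 and the same fold change, 2 members were higher in KO (*DUSP6* and *ETV4*), where 10.2% of all tested genes were, and 0 were lower, where 2.33% of all tested genes were. Among the tested members 2 of 8 had all KO values above all WT values, against 18.3% of tested genes, and 0 had all KO values below all WT values, against 5.77%. Without the filter 3 of 10 members lay above, against 13.6% of 18570 genes. These counts rest on few genes, those of groups without overlap lie near the background, and they are not a result about the 10 genes as a whole. The median log2 fold change of the tested members was 0.45, beside 0.09 over all tested genes, and 6 of 8 members against 60.6% of all genes were higher in KO. Without KO replicate 3 the median of the members was 0.10, and with median-of-ratios scaling it was 0.36 beside -0.02 over all genes.

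**Figure D1:**
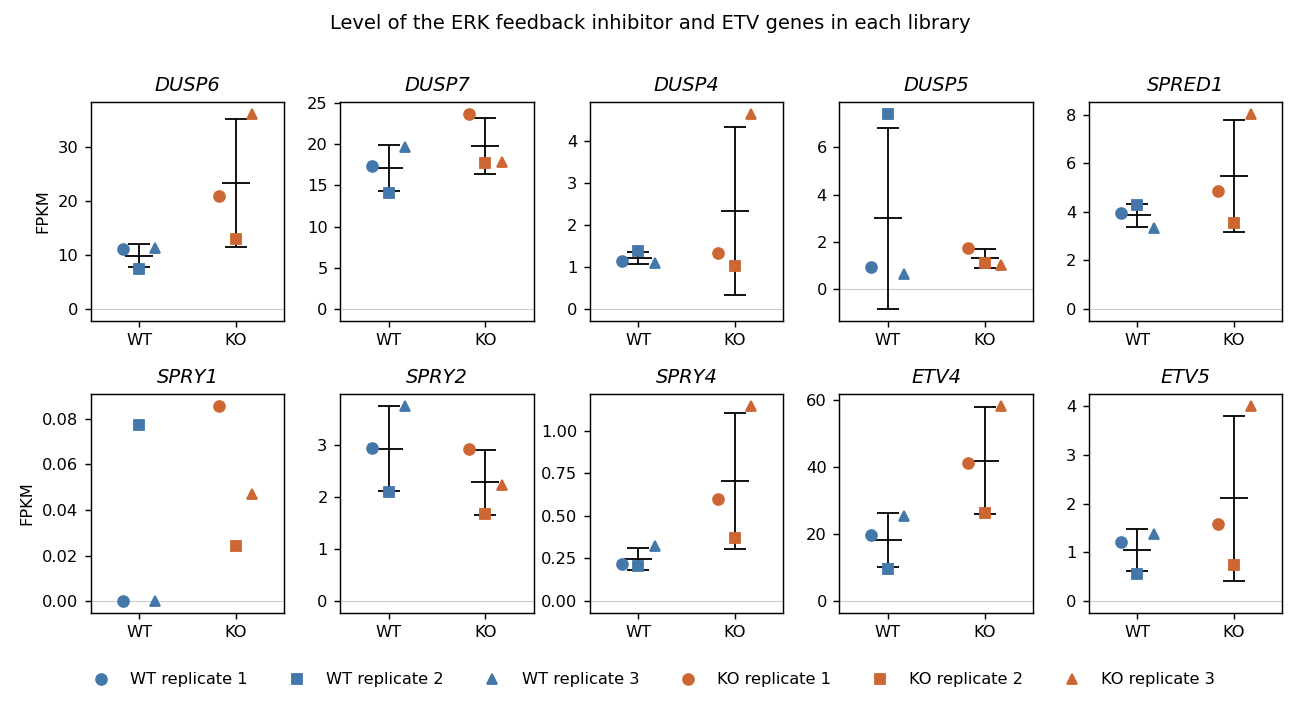
Level in FPKM of each of the 10 genes in the 3 WT (blue) and 3 KO (orange) libraries, with the mean and SD of each group as black bars (values only for *SPRY1*, listed at 0 in WT replicates 1 and 3); each panel has its own scale. The 3 KO points of *DUSP6*, *SPRY4* and *ETV4* lie above the WT points, KO replicate 3 is the highest for *DUSP4*, *SPRED1* and *ETV5*, and a single WT library is high for *DUSP5*.

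*DUSP6* (ENSG00000139318, minus strand, chr12:89347235-89352501 in GRCh38) encodes a phosphatase with high specificity for ERK. It was at 11.1, 7.47 and 11.2 FPKM in the WT lines and at 20.9, 13 and 36.2 FPKM in the KO lines. The lowest KO value lay above the highest WT value, but the KO lines spread far more widely than the WT lines, with means of 9.92 ± 2.12 FPKM in WT and 23.4 ± 11.8 FPKM in KO (SD, n = 3 lines each). The log2 fold change was 1.10 with an SE of 0.35, and its 95% interval of 0.27 to 1.92 corresponds to 1.21-fold to 3.79-fold higher. Its adjusted p was 0.261 (limma, Benjamini-Hochberg), and the exact two-sided permutation test gave 0.1, the smallest p that 3 lines against 3 allow. Without KO replicate 3 the log2 fold change was 0.73, and without WT replicate 2 it was 0.92. Scaled to the sum of genes outside the mitochondrial chromosome, it was 1.02. The KO lines with the lower mitochondrial shares, 11.9% in replicate 3 and 15.8% in replicate 1, had more *DUSP6* than replicate 2 with 23.7%. In WT, replicate 2 had the lowest share, 21.5%, and the least *DUSP6*, while replicates 1 and 3, at 27.6% and 22.2%, had nearly equal *DUSP6*. A relation of *DUSP6* to the mitochondrial share was not tested. As in any bulk RNA sample, more cells that express the gene and more RNA per cell cannot be told apart.

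*DUSP7* (ENSG00000164086, minus strand, chr3:52048919-52056571), the closest relative of *DUSP6* among the members, was at 17.4, 14.1 and 19.7 FPKM in the WT lines and at 23.7, 17.7 and 17.9 FPKM in the KO lines. The groups overlapped, since WT replicate 3 exceeded both KO replicates 2 and 3. The log2 fold change was 0.20 with an SE of 0.18 and a 95% interval of -0.22 to 0.63 (adjusted p = 0.583, limma), and without WT replicate 2 it was 0.078. The ratio of *DUSP6* to *DUSP7* within a library does not change when each library is scaled by a single factor. It was 0.636, 0.530 and 0.570 in WT and 0.882, 0.736 and 2.03 in KO, without overlap, and only in KO replicate 3 was *DUSP6* the more abundant of the pair. This ratio was chosen after the levels had been seen.

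The stretch around the start of *DUSP6* is shown because it holds sequence that CIC is known to recognise, and those around the starts of *SPRY4* (an annotated start inside the gene), which separated like *DUSP6*, and *SPRY2* (the outermost of its 3 windows), which did not, are shown beside it. RefSeq windows, from 250 bases before an annotated start to 50 bases from it in GRCh38.p14, matched 6 of the 10 members (*DUSP6*, *DUSP7*, *SPRY1*, *SPRY2*, *SPRY4* and *SPRED1*), with 9 windows in all. The first 280 bases of 3 windows follow, 5′ to 3′ on the strand of the gene, with motif matches in capitals.
*DUSP6*, minus strand, chr12:89352472-89352751: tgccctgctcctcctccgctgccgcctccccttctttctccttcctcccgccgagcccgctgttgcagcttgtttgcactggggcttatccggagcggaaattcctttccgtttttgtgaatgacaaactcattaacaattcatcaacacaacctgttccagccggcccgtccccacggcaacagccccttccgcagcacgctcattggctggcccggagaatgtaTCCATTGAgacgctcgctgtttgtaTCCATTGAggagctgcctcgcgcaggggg
*SPRY4*, minus strand, chr5:142324218-142324497: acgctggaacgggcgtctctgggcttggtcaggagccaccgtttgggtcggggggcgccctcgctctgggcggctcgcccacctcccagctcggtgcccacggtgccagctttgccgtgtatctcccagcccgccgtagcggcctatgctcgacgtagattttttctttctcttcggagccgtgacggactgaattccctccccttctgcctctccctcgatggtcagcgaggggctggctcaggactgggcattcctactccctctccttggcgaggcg
*SPRY2*, minus strand, chr13:80341097-80341376: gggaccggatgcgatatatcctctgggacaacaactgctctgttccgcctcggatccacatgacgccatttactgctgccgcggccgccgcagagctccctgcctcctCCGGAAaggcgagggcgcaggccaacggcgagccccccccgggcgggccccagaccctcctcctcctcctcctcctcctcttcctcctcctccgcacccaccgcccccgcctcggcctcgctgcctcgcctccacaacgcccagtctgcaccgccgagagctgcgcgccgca
The *DUSP6* capitals mark 2 copies of TCCATTGA, the reverse complement of the CIC octamer TCAATGGA, which begin at position -24 and position 1, with the start base counted as 0. A CIC octamer (TGAATGAA, TGAATGGA, TCAATGAA or TCAATGGA, on either strand) was found in 3.77% of 35116 RefSeq windows of the same length. Among the member windows it was found in that of *DUSP6* only. The *SPRY2* capitals mark CCGGAA, found in 17.2% of all windows, and the second *SPRY1* window also held it. This was the only form of the ETS site searched, so shorter or other forms are not marked in any window. The AP-1 site TGACTCA (4.95% of all windows), the CRE site TGACGTCA (1.85%) and the CArG box (1.29%), searched on both strands, were found in none of the 9 windows, and the *SPRY4* window held none of the 5 motifs. A match is a run of letters and not a measured binding site.

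*SPRY4* (ENSG00000187678, minus strand, chr5:142310427-142326455) encodes a Sprouty protein that acts on the step from receptor to RAF. It was at 0.219, 0.204 and 0.323 FPKM in the WT lines and at 0.597, 0.373 and 1.15 FPKM in the KO lines. The 3 KO lines all exceeded the 3 WT lines, with means of 0.249 ± 0.065 FPKM in WT and 0.705 ± 0.398 FPKM in KO (SD, n = 3 lines each). Its mean over the 6 libraries, 0.477 FPKM, lay just under the filter, and in the fit without a filter its log2 fold change was 0.64 with an SE of 0.24 (adjusted p = 0.388, limma). The pseudocount of 0.5 FPKM holds down the fold change of a gene at this level. The exact permutation test gave 0.1, again the smallest p possible.

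*SPRY2* (ENSG00000136158, minus strand, chr13:80335976-80341126), the most abundant Sprouty gene in these lines, was at 2.94, 2.11 and 3.75 FPKM in the WT lines and at 2.92, 1.69 and 2.24 FPKM in the KO lines. It did not share the direction of *SPRY4*: its log2 fold change was -0.30 with an SE of 0.26, in overlapping groups (adjusted p = 0.574, limma). Without WT replicate 2 it was -0.48, with all KO values below the remaining WT values, and without WT replicate 3 it was -0.13. The ratio of *SPRY4* to *SPRY2* within a library, also chosen after the values had been seen, was 0.0744, 0.0970 and 0.0861 in WT and 0.204, 0.221 and 0.511 in KO. *SPRY1* (ENSG00000164056, plus strand, chr4:123396795-123403760) was listed at 0 in WT replicates 1 and 3 and at 0.077 FPKM in WT replicate 2. KO replicates 1, 2 and 3 had 0.086, 0.024 and 0.047 FPKM, a level at which 1 fragment on a transcript of 1 kb is worth 0.0114 to 0.0148 FPKM, so no difference in *SPRY1* was detectable at this depth.

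*SPRED1* (ENSG00000166068, plus strand, chr15:38252836-38357249) encodes a membrane protein that recruits the RAS inhibitor neurofibromin. The WT lines had 3.94, 4.28 and 3.33 FPKM and the KO lines 4.86, 3.53 and 8.04 FPKM. KO replicates 1 and 3 exceeded all WT lines and KO replicate 2 did not. Its log2 fold change of 0.39 had an SE of 0.28 (adjusted p = 0.490, limma), and without KO replicate 3 it was 0.10. *NF1*, the gene of neurofibromin, had a log2 fold change of 0.26 with an SE of 0.17.

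*ETV4* (ENSG00000175832, minus strand, chr17:43527844-43579620) had the highest mean of the 10 genes in both groups, although in WT it overlapped with *DUSP7* and was the lower of the pair in WT replicate 2. It was at 19.7, 9.46 and 25.2 FPKM in the WT lines and at 41.0, 26.3 and 58.1 FPKM in the KO lines. The groups did not overlap, though WT replicate 3 and KO replicate 2 came close, and the means were 18.1 ± 7.99 and 41.8 ± 15.9 FPKM (SD, n = 3 lines each). The log2 fold change was 1.22 with an SE of 0.40 and a 95% interval of 0.29 to 2.15. The adjusted p was 0.261 (limma, Benjamini-Hochberg), and the exact permutation test gave 0.1. Without WT replicate 2, the lowest WT line, the log2 fold change was 0.82, and without KO replicate 3 it was 0.95. When each library was centred chromosome by chromosome it was 1.03, and the groups then overlapped.

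*ETV5* (ENSG00000244405, minus strand, chr3:186046314-186110318), the other PEA3 factor that was tested, was at 1.22, 0.548 and 1.37 FPKM in the WT lines and at 1.58, 0.740 and 4.0 FPKM in the KO lines. KO replicate 2 lay within the WT range, and KO replicate 3 stood well above every other line. Its log2 fold change was 0.60 with an SE of 0.48 (adjusted p = 0.533, limma), and it was 0.10 without KO replicate 3 and 0.34 without WT replicate 2. *ETV4* exceeded *ETV5* in each library, by a ratio of 16.1, 17.3 and 18.4 in WT, which was nearly constant, and of 25.9, 35.6 and 14.5 in KO.

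*DUSP4* (ENSG00000120875, minus strand, chr8:29333064-29350684), a nuclear phosphatase, was at 1.15, 1.37 and 1.10 FPKM in the WT lines and at 1.34, 1.02 and 4.66 FPKM in the KO lines. A single line, KO replicate 3, carried its higher KO mean, and KO replicates 1 and 2 lay within or under the WT values. On the log2 scale KO exceeded WT by 0.51 with an SE of 0.44 (adjusted p = 0.567, limma), and without KO replicate 3 it was -0.03.

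*DUSP5* (ENSG00000138166, plus strand, chr10:110497907-110511533), the other nuclear phosphatase and an ERK-specific one, was at 0.903, 7.43 and 0.627 FPKM in the WT lines and at 1.75, 1.09 and 1.02 FPKM in the KO lines. WT replicate 2 was far above every other line and set the WT mean. The log2 fold change was -0.40 with an SE of 0.69 (adjusted p = 0.779, limma). Without WT replicate 2 it was 0.48, and all KO values then lay above the remaining WT values. *DUSP5* lies on the chromosome that carries *FGFR2*. The median difference of that chromosome's genes from the WT mean was taken on the log2 scale, less the library's median over all genes. It was -0.43, -0.16 and -0.19 in the KO lines and 0.02, 0.14 and -0.16 in the WT lines, with overlap. In a separate fit each library was centred chromosome by chromosome, which removes other values than those listed. There the log2 fold change of *DUSP5* was -0.25. WT replicate 2 also had the most *FGFR2* and the highest sum of 6 fibroblast markers, 33.2 FPKM against 7.99 and 15.3 FPKM in the other WT lines and 6.91 to 12.6 FPKM in KO. Most of that sum was *DCN*, with 15.5 FPKM, and *COL1A1*, with 16.7 FPKM, while *COL3A1* was listed at 0 and *PDGFRB* had 0.021 FPKM. The part of these differences in the level of *DUSP5* was not tested.

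**Figure D2:**
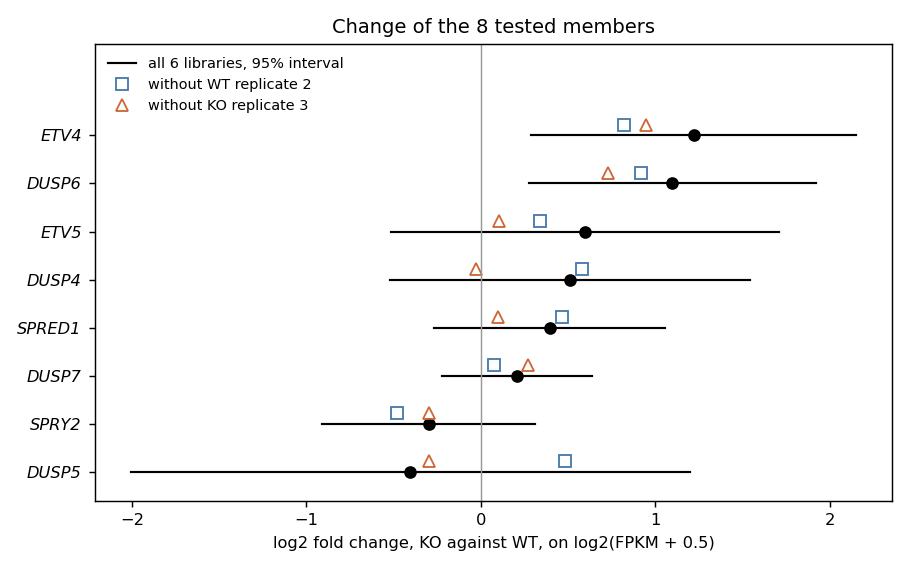
Log2 fold change of KO against WT on log2(FPKM + 0.5) for the 8 tested genes, with the 95% interval as a line, and the same without WT replicate 2 (squares) or without KO replicate 3 (triangles). The intervals of *ETV4* and *DUSP6* lie above 0 at 0.29 to 2.15 and 0.27 to 1.92, *DUSP4* goes to -0.03 without KO replicate 3, and *DUSP5* goes from -0.40 to 0.48 without WT replicate 2.

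Several members ordered the lines alike. *DUSP6*, *ETV4* and *SPRY4* put the 6 libraries in the same order: KO replicate 3 was highest, then KO replicates 1 and 2, then WT replicates 3, 1 and 2. Among all genes above 0 in at least 1 library, which include *SPRY4*, 598 of 18570 (3.22%) had that order, and among the tested genes, which include *DUSP6* and *ETV4*, 579 (4.73%) had it. The order was that of *DUSP6*, taken after its values were seen. Only genes with all KO values above all WT values can have it, and these numbered 2530 of the 18570 and 2245 of the tested genes. The shared order is therefore not a trait of the members. KO replicate 3 was the highest library for 6 members (*DUSP4*, *DUSP6*, *SPRY4*, *SPRED1*, *ETV4* and *ETV5*). WT replicate 2 was the lowest for 5 (*DUSP6*, *DUSP7*, *SPRY4*, *ETV4* and *ETV5*). These libraries were the pair least alike, and the share of all genes with the same extremes was not counted, so the counts are not a trait of the members. WT replicate 2, the WT line with the most *FGFR2*, was the lowest WT line for *DUSP6*, *DUSP7*, *SPRY2*, *SPRY4*, *ETV4* and *ETV5*. It was the highest WT line for *DUSP4*, *DUSP5*, *SPRED1* and *SPRY1*. A relation of the members to the level of *FGFR2* was not tested. The tested members had a median log2 difference from the WT mean of 0.39 in KO replicate 1, -0.14 in KO replicate 2 and 1.28 in KO replicate 3, beside 0.10, 0.05 and 0.15 over all tested genes. KO replicate 3 was also the line with the lowest sum of 7 keratinocyte differentiation markers, at 538 FPKM. The sum was 5421 and 2355 FPKM in KO replicates 1 and 2 and 1569 to 8527 FPKM in WT. Taken singly, KO replicate 3 was the lowest line for *KRT1*, *KRT10*, *TGM1* and *SPRR1B*, but not for *IVL*, *FLG* and *LORICRIN*. Of the 7 markers 6 were tested, and 6 had negative log2 fold changes with a median of -0.74, though 0 separated the groups. Without KO replicate 3 their median was -0.06, with 3 of 6 higher in KO, and without WT replicate 3 it was -0.19. The part of that difference in the members' levels was not tested.

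**Figure D3:**
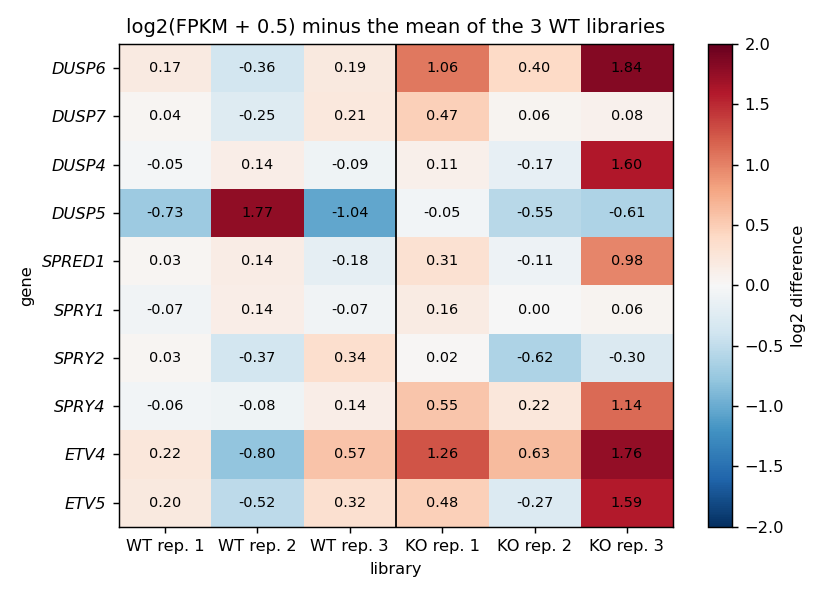
Difference of log2(FPKM + 0.5) from the mean of the 3 WT libraries for the 10 genes (rows) in the 6 libraries (columns), red for higher and blue for lower. KO replicate 3 holds high values, 1.84 for *DUSP6* and 1.76 for *ETV4*, KO replicate 2 stays at 0.40 and 0.63 for these genes, and *DUSP5* stands out in WT replicate 2 at 1.77.

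Ordered by mean level per length, the WT lines had *ETV4* and *DUSP7* highest, whose values overlapped, then *DUSP6* at 9.92 FPKM and *SPRED1* at 3.85 FPKM. *DUSP5* and *SPRY2* followed, with overlap between *SPRED1* and *DUSP5* and between *DUSP5* and *SPRY2*. *DUSP4* at 1.21 FPKM and *ETV5* at 1.05 FPKM overlapped, and *SPRY4* and *SPRY1* came last. In the KO lines *DUSP6* stood above *DUSP7* by mean, 23.4 against 19.8 FPKM, but in 1 of 3 lines only. The *ETV4* and *DUSP6* values overlapped across KO lines, although *ETV4* was the higher in each of the 3. Among neighbours in the KO order, *DUSP7* and *SPRED1* did not overlap, nor did *SPRY4* and *SPRY1*.

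By Euclidean distance between log2(FPKM + 0.5) values centred over the 6 libraries, the member most like *DUSP6* was *ETV4*, and the reverse, at 0.64. *SPRY4* and *SPRED1* were nearest to each other at 0.52, *DUSP4* was nearest to *SPRED1* at 0.65, and *ETV5* was nearest to *DUSP6* at 0.72. *SPRY2* was nearest to *DUSP7* at 0.68, *DUSP7* and *SPRY1* were nearest to each other at 0.57, and *DUSP5* had no close partner, with *SPRY1* at 2.12. The pseudocount flattens low genes: *SPRY1*, at 0 to 0.086 FPKM, ranged only from -0.07 to 0.16 around the WT mean on this scale. Its place beside *DUSP7* and *DUSP5* therefore does not show a shared pattern. The differences of *SPRY4* between libraries are held down in the same way. Over all tested genes the 5 nearest to *DUSP6* were *PORCN* at 0.29, *RRP9* at 0.32, *POLR3G* at 0.33, *ZMYND19* at 0.35 and *TRIP13* at 0.36, and *ETV4* ranked 151 in that order. *PORCN*, for example, had 7.77, 5.15 and 6.96 FPKM in the WT lines and 11.5, 8.58 and 23.9 FPKM in the KO lines. These distances describe 6 libraries that share the differences between lines, and carry no test.

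The genes around the members in the pathway were counted in the same fit, in which 0 of them passed the adjusted threshold. Of 19 other genes that ERK signaling induces, 18 were tested, with 16 higher in KO, 7 of them past the unadjusted threshold, and 0 lower past it. Of all tested genes, 60.6% were higher in KO, 10.2% were higher past that threshold and 2.33% lower past it. The list was chosen with earlier results of these data known and was not tested. The median log2 fold change of the 18 genes was 0.55, 0.45 with median-of-ratios scaling (12 of 18 higher) and 0.26 without KO replicate 3 (3 higher past the unadjusted threshold). The largest were *FOSL1* and *FOS*, subunits of AP-1, and the immediate early gene *IER3*. *FOSL1* had 6.25, 6.45 and 8.50 FPKM in WT and 19.3, 17.8 and 40.3 FPKM in KO, a log2 fold change of 1.71 with an SE of 0.31. *FOS* had 1.41, 2.25 and 1.75 FPKM in WT and 6.39, 5.04 and 6.59 FPKM in KO, with 1.51 and an SE of 0.21, and *IER3* was at 1.14 with an SE of 0.29; these 3 shared an adjusted p of 0.261 (limma). In *FOS* the KO lines lay close together, unlike in *DUSP6*. *INHBA*, which encodes a subunit of activin, overlapped between the groups, with 1.12, 0.183 and 2.40 FPKM in WT and 2.35, 0.840 and 2.20 FPKM in KO.

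The genes of the cascade itself were split by direction. Of 25 genes from the FGF receptors to ERK and its RSK targets 24 were tested, of which 12 were higher and 12 lower, with a median log2 fold change of 0.01 (-0.10 with median-of-ratios scaling, 8 of 24 higher). At the unadjusted threshold 0 were higher and 3 were lower, where 10.2% and 2.33% of all tested genes were. The 3 were the targeted gene *FGFR2* at -2.73, the docking protein gene *GAB1* at -0.55 and the RAS exchange factor gene *SOS2* at -0.55. In *GAB1* the WT lines had 13.2, 11.5 and 12.7 FPKM and the KO lines 8.87, 10.1 and 6.48 FPKM. The remaining MAP kinase phosphatases (6 genes, 4 tested) and the remaining Sprouty, Spred and PEA3 genes (4 genes, 1 tested) held 0 past it. *DUSP16* had a log2 fold change of -0.24, *DUSP9* 0.15, *DUSP10* 0.13 and *SPRED2* 0.16, each in overlapping groups. *DUSP10*, at 66.1 ± 12.8 FPKM in WT (SD, n = 3), exceeded every member, and *DUSP9*, at 17.5 ± 5.53 FPKM, was close to *DUSP7*. Of 9 other negative regulators of the pathway, 7 were tested and 0 passed it, with *ERRFI1* at 0.35, *CBLB* at -0.35 and the repressor gene *CIC* at -0.13.

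**Figure D4:**
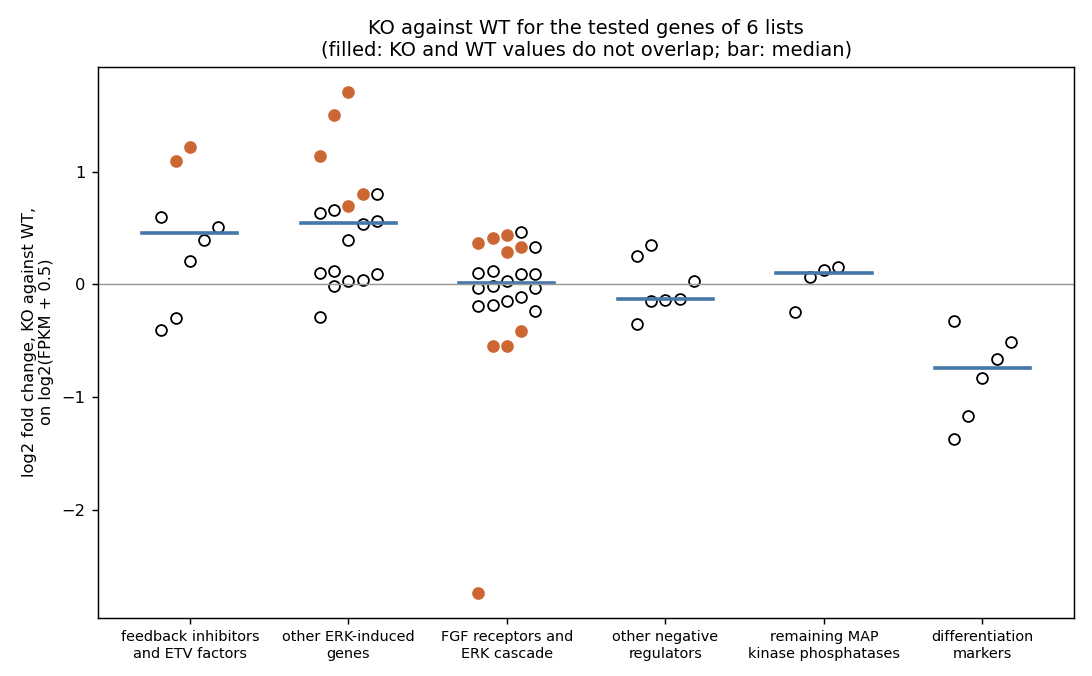
Log2 fold change of KO against WT on log2(FPKM + 0.5) for the tested genes of 6 lists, filled where the KO and WT values do not overlap, with the median of each list as a bar. The medians are 0.45 for the feedback inhibitors and ETV factors, 0.55 for the other ERK-induced genes, 0.01 for the receptors and cascade, -0.13 for the other negative regulators, 0.10 for the remaining MAP kinase phosphatases and -0.74 for the differentiation markers.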

How the data were processed

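PolyA-selected RNA of 3 WT and 3 *FGFR2* KO HaCaT lines was sequenced with paired ends. The authors trimmed reads with fastp 0.20.0 and quantified them with kallisto 0.46.1 against GRCh38 with GENCODE gene models. The values the authors deposited are FPKM per gene, and how these were calculated is not given in the sources used here. Of 21493 listed genes, 18 Y copies of pseudoautosomal genes repeated the X copies and were left out, and 21400 of the remaining 21475 had a symbol and position in GENCODE release 44. Depth was estimated from steps in the low values, as the depth at which most of them were whole fragments within 0.02. At that depth 68.6% to 72.5% were, so whole reads were not recovered and no count test was run. By chance 4.0% would be at a depth fixed in advance, which is not the chance level of a share maximised over depths.

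The 12241 genes whose 6 libraries averaged 0.5 FPKM or more were tested for KO against WT in R 4.3.3 by limma 3.58.1, using log2(FPKM + 0.5), a mean-variance trend and Benjamini-Hochberg adjustment over all of them, and single genes by an exact two-sided permutation test. The script was tested on simulated data. Fold changes on this scale understate those of low genes, and p-values measure the spread between lines, with 1 library each.

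The members and the lists of other genes were chosen with earlier results of these data known, so no list was tested. All members are named; of the other lists, *FGFR2*, *INHBA* and up to 3 tested genes with the largest changes are, and any further gene was chosen after its values were seen. Alternatives were pseudocounts of 0.1 and 1, dropping the filter or raising it to 2 FPKM, TPM, median-of-ratios, quantile and nuclear-gene scaling, removal of chromosome medians, no trend, library weights, a replicate block, and each library left out in turn.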

Additional observations from a re-analysis of the deposited data

How the results depend on the processing

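The count of 0 called members and 0 called genes held under every alternative except library weights, under which 1396 genes and 2 members were called, *DUSP6* (log2 fold change 0.86, adjusted p = 0.0402, limma) and *ETV4* (0.97, adjusted p = 0.0399); that fit gave WT replicate 1 89.7% of the weight of its group and KO replicate 1 60.6%. Over all alternatives the adjusted p of *DUSP6* ran from 0.0402 to 0.634 and that of *ETV4* from 0.0399 to 0.634. Of the 8 tested members, 2 had groups that did not overlap; without the filter, which adds *SPRY4*, it was 3 of 10. The number among those tested became 1 (*DUSP6*) with chromosome medians removed. It was 2 to 4 when 1 library was left out (without WT replicate 2, 1 of the 4 was lower in KO, *SPRY2*). It was 4 without both WT replicate 2 and KO replicate 3, a choice made after the values were seen. Over the 12241 genes such groups also became more frequent once a library was dropped. With all 6 libraries, 2245 genes were higher and 706 lower in KO without overlap. Without WT replicate 2 these counts were 3315 and 1072, and without KO replicate 2 they were 3847 and 1595. Without both WT replicate 2 and KO replicate 3 they were 3718 and 1267. The rise from 2 to 4 therefore cannot be read as more separation of the members. *DUSP5* turned to 0.42 with library weights and to 0.59 without both libraries, and ran from -0.93 to 0.48 with 1 library left out, positive without WT replicate 2. *DUSP4* ran from -0.030 to 0.85, negative without KO replicate 3, and *ETV5* turned to -0.16 without both. *DUSP6* and *ETV4* ran from 0.73 to 1.45 and from 0.82 to 1.51 with 1 library left out and were 0.55 and 0.55 without both. *DUSP4* and *ETV5* had no value at a mean of at least 2 FPKM.

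Before adjustment, at p up to 0.05 and a log2 difference of 0.5 or more in size, 1251 genes were higher and 285 lower (81.4% higher), against 786 and 521 (60.1% higher) with median-of-ratios scaling, 807 and 500 with quantile normalization, 930 and 400 with nuclear-gene scaling and 759 and 490 with chromosome medians removed. With 1 library left out the counts ran from 539 (without KO replicate 3) to 1752 higher and from 94 to 510 lower. The replicate block left the count of called genes at 0, with a smallest adjusted p of 0.0972 (*ETV4*); same-numbered WT and KO libraries deviated with correlations of -0.21, 0.22 and 0.05, and 2 of 6 libraries correlated best with their own number, so the numbers were not taken to pair the samples.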
